A study of Rattus norvegicus with 12 samples.

Results

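The 8 genes described here are the opioid peptide precursors *Penk*, *Pdyn*, *Pnoc* and *Pomc* and the opioid receptors *Oprm1*, *Oprd1*, *Oprk1* and *Oprl1*. They were picked by gene symbol from a striatal RNA sequencing table of 17337 symbols, and all 8 were present. Each of the 12 libraries came from the striatum of 1 wild-type male Sprague–Dawley rat. The MA12 rats (n = 4) were killed 12 h after the last of 16 days of methamphetamine (MA) self-administration, and the MA24 rats (n = 4) 24 h after it. Rats were kept on a 12-h light-dark cycle, and the hour of the sessions is not given. Length of abstinence and time of day at death therefore cannot be told apart between MA12 and MA24. A further 4 rats carry the label non-addicted, and their labels also give 16 days of MA self-administration, so all 12 rats had MA according to the labels. All 12 share 1 batch label. The methods do not describe how the non-addicted rats were set apart or when they were killed, so comparisons with them set 2 groups of rats side by side and do not isolate MA or time. Some rats have numbers ending in N, a suffix whose meaning is not given. These are the 4 MA24 rats and MA12 rats 4N and 7N, and no non-addicted rat has one. Non-addicted and MA24 rats therefore differ in number kind as well as in group, and these cannot be told apart. Total counts lay between 17908962 and 23850284 per rat. Values are CPM, the count of a gene relative to the TMM-scaled size of its library, and fold changes come from edgeR's quasi-likelihood test on the counts. A member is called where the Benjamini-Hochberg adjusted p over all genes tested is below 0.05 and the fold change (FC) is at least 1.5. Nothing states that rats of a group came from separate cohorts or litters, so p-values measure the spread between these rats.

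Opioid peptides are cut from large precursor proteins. Proenkephalin (*Penk*) yields enkephalins, which act mainly on mu and delta receptors, prodynorphin (*Pdyn*) yields dynorphins, which act mainly on kappa receptors, pronociceptin (*Pnoc*) yields nociceptin, and pro-opiomelanocortin (*Pomc*) yields beta-endorphin. The receptors are the mu (*Oprm1*), delta (*Oprd1*), kappa (*Oprk1*) and nociceptin (*Oprl1*) receptors, which couple to inhibitory G proteins. In the striatum, *Penk* marks projection neurons of the indirect pathway and *Pdyn* those of the direct pathway. Dynorphin acting on kappa receptors is known to lower dopamine release, and stimulant drugs are known to raise striatal *Pdyn*.

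Markers of striatal neurons were abundant in all rats. The 9 markers of striatal projection neurons summed to between 14449 and 19350 CPM in MA12, between 18440.3 and 21564 in MA24 and between 15623 and 19239 in non-addicted rats, while the 5 cortical markers present in the table summed to at most 10.2 CPM in any rat. *Penk* had 41286 to 63052 counts per rat. *Pdyn* had 4601 to 10714 counts. The other 6 members were thinly covered. Their mean counts over the 12 rats were 172 for *Oprk1*, 155 for *Oprl1*, 144 for *Oprd1*, 82.7 for *Pomc*, 82.3 for *Pnoc* and 25.0 for *Oprm1*, and counting error alone gives *Oprm1* a coefficient of variation of 20.0%. Levels are not compared between genes, because transcript length was not corrected for. Across the 12 rats, *Penk* was among the steadier genes (SD of 0.13 in log2 CPM, against a median of 0.17 over the 10765 genes with a mean count of at least 50), and *Pnoc* varied most of the 7 members in that set (SD 0.94), more than 99.6% of those genes.

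**Figure D1:**
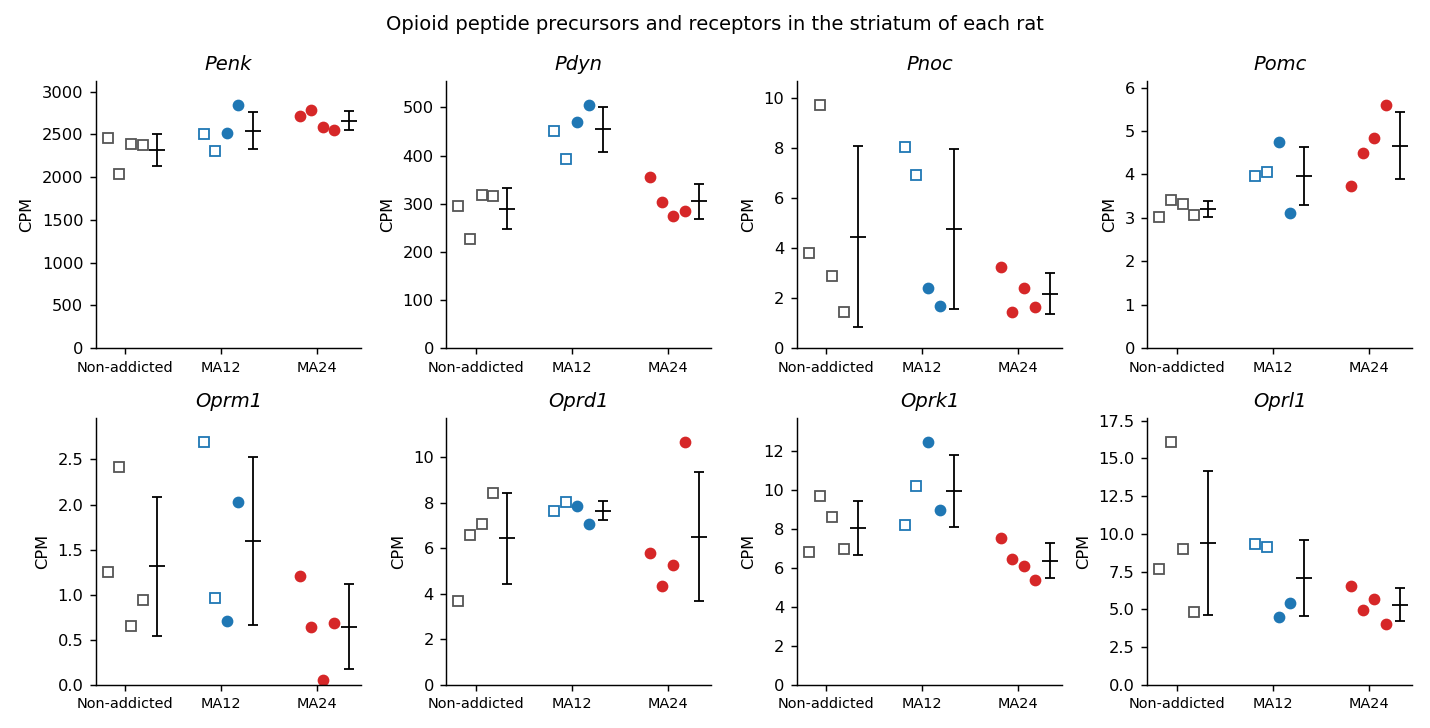
CPM of each of the 8 genes (y axis, starting at 0 and scaled per gene) in every rat, by group (x axis), with filled circles for rats whose number ends in N and open squares for the others. Black bars are the group mean ± SD of 4 rats. *Pdyn* in the 4 MA12 rats lay above all 8 other rats, and *Pnoc* and *Oprl1* were highest in non-addicted rat 11.

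The promoter of *Pdyn* is shown because *Pdyn* is the only member that the edgeR fit used here called in any of the 3 comparisons, while DESeq2 also called *Oprk1* in MA24 vs. MA12. These are the 250 bases before its annotated start in RefSeq (GRCr8, chr3:137366504-137366753, minus strand), 5′ to 3′, with a TATAAA match in capitals whose first base lies 13 bases before the start.
Pdyn: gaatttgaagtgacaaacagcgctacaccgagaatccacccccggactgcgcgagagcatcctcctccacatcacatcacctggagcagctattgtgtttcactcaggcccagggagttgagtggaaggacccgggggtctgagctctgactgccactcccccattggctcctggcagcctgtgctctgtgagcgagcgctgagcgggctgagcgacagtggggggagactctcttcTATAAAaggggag
TATAAA occurs on either strand in 12.9% of 33469 rat promoters of this length. The cAMP response element TGACGTCA (1.59% of promoters), its shorter form TGACG (18.2%, which also counts every TGACGTCA) and the AP-1 motif TGANTCA (6.34%) were not found in this window. Only these exact letters were searched for, so variant forms of these elements and sites farther upstream were not covered. Promoters were also at hand for *Pomc*, *Oprm1* and *Oprd1*, but not for *Penk*, *Pnoc*, *Oprk1* and *Oprl1*. RefSeq's build differs from rn6, on which the counts were made.

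Between 24 h and 12 h of abstinence, 6 of the 8 members had a log2FC below 0 and 2 above. By edgeR, 0 of 8 were called, where 2.45% of all genes tested were, and DESeq2 called 1 (*Oprk1*). *Pdyn* alone had an adjusted p below 0.05, as did 5.16% of all genes. An unadjusted p below 0.05 was seen for 4 of 8, *Pdyn*, *Pnoc*, *Oprm1* and *Oprk1*, and for 23.6% of all genes. The groups did not overlap for *Pdyn* and *Oprk1*, as for 15.6% of all genes. The median log2FC of the 8 was -0.49, against -0.02 over all genes tested. For non-addicted vs. MA12, 7 of 8 members had a log2FC below 0 (median -0.27, against -0.01 over all genes). *Pdyn* was the 1 member called, where 0.251% of genes were called and 0.270% had an adjusted p below 0.05. It was the 1 member with an unadjusted p below 0.05, as had 12.3% of genes. It was also the 1 member whose groups did not overlap, as in 7.10% of genes. In non-addicted vs. MA24, 4 members had a log2FC below 0 and 4 above (median 0.16, against 0.00 over all genes). By edgeR and by DESeq2, 0 were called, where edgeR called 0.456% of genes and gave 0.549% an adjusted p below 0.05. *Penk*, *Pnoc*, *Pomc* and *Oprl1* had an unadjusted p below 0.05 there, as had 17.5% of genes, and the groups did not overlap for *Penk* and *Pomc*, as for 10.0% of genes. The 3 comparisons share their groups of rats, so they are not independent of each other.

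**Figure D2:**
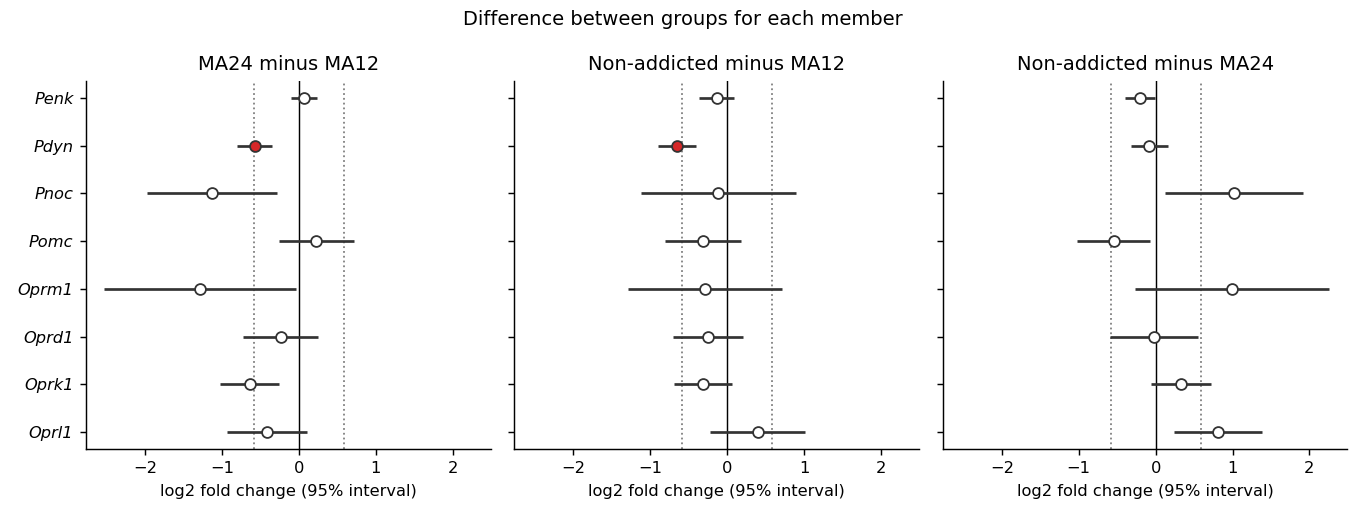
Log2 fold change (x axis) of each member (y axis) in the 3 comparisons, as points with 95% intervals from the edgeR fit of 4 against 4 rats. Dotted lines mark an FC of 1.5 and filled points an adjusted p below 0.05, which *Pdyn* had against MA12 in both comparisons (log2FC -0.57 and -0.65).

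*Pdyn* was highest in the MA12 rats. Its CPM was 451, 393, 469 and 504 in MA12 rats 21, 31, 4N and 7N. It was 356, 304, 273 and 286 in MA24 rats 9N, 14N, 15N and 16N. In non-addicted rats 9, 11, 12 and 13 it was 296, 227, 317 and 317. Every MA12 rat stood above every rat of the other groups, and the MA24 and non-addicted rats overlapped. Group means were 454 ± 46.4 in MA12, 305 ± 36.5 in MA24 and 289 ± 42.6 in non-addicted rats (SD, n = 4 each).

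In MA24 vs. MA12, *Pdyn* was 1.49-fold lower (log2FC -0.57, SE 0.11, 95% interval -0.80 to -0.35, adjusted p = 0.00838, edgeR), which passed the p threshold and fell just short of the FC of 1.5. The adjusted p was below 0.05 in all 17 alternatives in which *Pdyn* was tested, and the FC reached 1.5 in 4 of them. Among the 6 rats numbered with N, the difference was -0.66 (adjusted p = 0.00460, edgeR). In non-addicted vs. MA12, *Pdyn* was 1.57-fold lower (log2FC -0.65, SE 0.12, 95% interval -0.91 to -0.40, adjusted p = 0.0281, edgeR) and was called. This call depends on the processing. The filter on variance can be read in several ways, 19 of which were computed. With log2FC values from -0.66 to -0.65 throughout, *Pdyn* was called in 15 of the 19, at adjusted p from 0.0204 to 0.0652 (edgeR), and the reading used here was adopted after *Pdyn* had been seen under others. It was not called either without the variance filter (adjusted p = 0.0643, edgeR), or among the 6 rats numbered without N (log2FC -0.53, adjusted p = 0.0551, edgeR), or without any one of non-addicted rats 11 and 12 and MA12 rats 21, 4N and 7N. DESeq2 called it (adjusted p = 4.31e-05). In non-addicted vs. MA24, *Pdyn* differed by a log2FC of -0.08 (95% interval -0.33 to 0.16, adjusted p = 0.740, edgeR). In whole tissue, fewer cells of a type and less RNA per cell cannot be told apart. Of the 5 other markers of direct pathway neurons in the table, 0 were called in MA24 vs. MA12 by edgeR or DESeq2. An unadjusted p below 0.05 was seen for 1 of them, as for 23.6% of all genes. It was *Chrm4*, which rose (log2FC 0.28, SE 0.10, adjusted p = 0.115, edgeR), while the other 4 had a log2FC below 0. The 5 markers summed to 1057 to 1254 CPM in MA12, 1061 to 1185 in MA24 and 992 to 1245 in non-addicted rats, so these ranges overlapped. Among them, *Drd1*, the dopamine D1 receptor, had a log2FC of -0.13 (adjusted p = 0.428, edgeR), and *Tac1*, the substance P precursor, -0.07 (adjusted p = 0.723). The 3 patch (striosome) markers, of the compartment where *Pdyn* and *Oprm1* are enriched, summed to 220 to 238 CPM in MA12, 165 to 216 in MA24 and 182 to 202 in non-addicted rats, so MA12 was highest there too. None of the 3 was called in any comparison by edgeR or DESeq2. An unadjusted p below 0.05 was seen for 2 of 3 in MA24 vs. MA12 (23.6% of all genes) and in non-addicted vs. MA12 (12.3%). In non-addicted vs. MA24 it was seen for 0 of 3 (17.5%). The 3 markers of the matrix, the compartment around the patches, summed to 656 to 786 CPM in MA12. They summed to 613 to 766 in MA24 and 646 to 827 in non-addicted rats, so these ranges overlapped. In MA24 vs. MA12, the matrix marker *Epha4* had a log2FC of -0.38 (adjusted p = 0.0301, edgeR), short of the FC of 1.5. *Calb1* and *Id4* had 0.00 and 0.11 there (adjusted p = 0.992 and 0.505, edgeR). The part of these markers in the *Pdyn* difference was not tested.

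*Penk*, the other abundant precursor, differed little between the abstinence times. Its CPM was 2501, 2309.8, 2517 and 2839 in MA12 rats 21, 31, 4N and 7N, and 2712, 2788, 2584 and 2554 in MA24 rats 9N, 14N, 15N and 16N. The groups overlapped. In the fit without the variance filter, which removes *Penk* here, the log2FC was 0.07 (95% interval -0.11 to 0.24, adjusted p = 0.669, edgeR). In non-addicted rats 9, 11, 12 and 13, *Penk* was 2461, 2036, 2385 and 2370.4 CPM, so all 4 lay below all MA24 rats and rat 11 was lowest of the 12. The log2FC against MA24 was -0.21 (SE 0.09, adjusted p = 0.256, edgeR) and against MA12 -0.14 (adjusted p = 0.638). Neither passed.

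The balance of the 2 precursors within a rat separated MA12 from the rest. There were 5.37 to 5.87 *Penk* counts for each *Pdyn* count in the 4 MA12 rats, 7.61 to 9.45 in the MA24 rats and 7.49 to 8.97 in the non-addicted rats. No MA12 rat overlapped the others, and MA24 and non-addicted rats overlapped. The log2 ratio of *Pdyn* to *Penk* was -2.49 ± 0.05 in MA12, -3.13 ± 0.14 in MA24 and -3.01 ± 0.13 in non-addicted rats (SD, n = 4 each). This ratio does not depend on library scaling, and it was set up knowing that *Pdyn* differed, so it is given without a test.

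**Figure D3:**
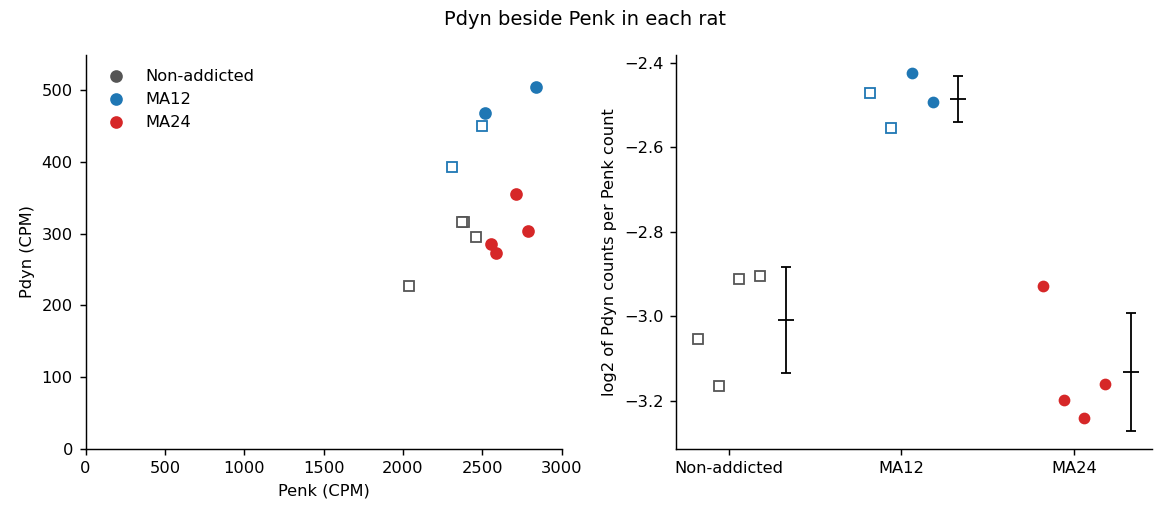
Left, *Pdyn* CPM (y axis) against *Penk* CPM (x axis) in each rat. Right, the log2 of *Pdyn* counts per *Penk* count (y axis, not starting at 0) by group with mean ± SD of 4 rats. Filled circles are rats numbered with N and open squares the others. The MA12 rats sit above the rest in both, with means of -2.49, -3.13 and -3.01 for MA12, MA24 and non-addicted rats.

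*Pomc*, whose neurons lie in the hypothalamus, averaged 3.97 CPM in MA12, 4.66 in MA24 and 3.20 in non-addicted rats. It was 3.96, 4.05, 4.75 and 3.10 CPM in MA12 rats 21, 31, 4N and 7N, and 3.74, 4.49, 4.83 and 5.59 in MA24 rats 9N, 14N, 15N and 16N. In non-addicted rats 9, 11, 12 and 13 it was 3.02, 3.40, 3.32 and 3.07. All non-addicted rats lay below all MA24 rats, while MA12 overlapped both. The log2FC in non-addicted vs. MA24 was -0.54 (SE 0.23, adjusted p = 0.235, edgeR), in MA24 vs. MA12 0.23 (adjusted p = 0.573) and in non-addicted vs. MA12 -0.31 (adjusted p = 0.634), so none passed. The counts were 55 to 106 per rat. The 7 hypothalamic markers summed to 10.1 to 14.0 CPM in MA12, 11.3 to 15.5 in MA24 and 12.9 to 23.2 in non-addicted rats, with *Pmch* at 0 in every rat. The 4 pituitary markers summed to at most 0.460 CPM, with *Prl* at 0 in every rat. The 4 endothelial markers (*Cldn5*, *Pecam1*, *Flt1* and *Kdr*) summed to 266 to 379 CPM in non-addicted rats, 359 to 465 in MA12 and 431 to 481 in MA24, so non-addicted and MA24 rats did not overlap there either. In non-addicted vs. MA24, all 4 had a log2FC below 0 and an unadjusted p below 0.05, as had 17.5% of all genes in either direction. By edgeR, 2 of 4 were called, where 0.456% of all genes were. *Nos3*, the endothelial nitric oxide synthase, was among the genes most like *Pomc* over the 12 rats (r = 0.90). The part of these markers in the *Pomc* values was not tested.

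*Pnoc* and its receptor gene *Oprl1* varied from rat to rat more than between groups. *Pnoc* was 8.04, 6.94, 2.40 and 1.69 CPM in MA12 rats 21, 31, 4N and 7N. It was 3.23, 1.43, 2.41 and 1.64 in MA24 rats 9N, 14N, 15N and 16N, and 3.80, 9.71, 2.87 and 1.46 in non-addicted rats 9, 11, 12 and 13. The high rats were MA12 21 and 31 and non-addicted 11, and all groups overlapped.

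*Oprl1* was 9.30, 9.11, 4.47 and 5.42 CPM in the MA12 rats in the same order. In the MA24 rats it was 6.54, 4.98, 5.70 and 4.01, and in the non-addicted rats 7.66, 16.1, 8.98 and 4.84. The same 3 rats were the highest of the 12, and the groups overlapped again.

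In MA24 vs. MA12, *Pnoc* had a log2FC of -1.13 (SE 0.41, adjusted p = 0.105, edgeR) and *Oprl1* of -0.41 (SE 0.25, adjusted p = 0.316). Among the rats numbered with N, these became 0.10 (adjusted p = 0.925) and 0.12 (adjusted p = 0.870), since the MA12 rats with high values are both numbered without N. *Pnoc* was called without MA12 rat 7N (log2FC -1.39, adjusted p = 0.0257, edgeR). In non-addicted vs. MA24, *Pnoc* had a log2FC of 1.02 (adjusted p = 0.236, edgeR) and *Oprl1* of 0.81 (SE 0.27, adjusted p = 0.153). *Oprl1* was called there without non-addicted rat 13 (log2FC 1.03, adjusted p = 0.0232, edgeR). The values for non-addicted vs. MA12 were -0.12 (adjusted p = 0.950) and 0.40 (adjusted p = 0.627).

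Markers of the septum, which borders the striatum, moved with both genes. *Zic1*, *Trpc4* and *Dlk1* summed to 67.4 and 55.0 CPM in MA12 rats 21 and 31 and to 86.4 in non-addicted rat 11, the 3 rats with the most *Pnoc* and *Oprl1*. In the other 9 rats the sum was between 16.1 and 43.3. By group, it ran from 22.8 to 67.4 in MA12, from 16.1 to 27.7 in MA24 and from 20.3 to 86.4 in non-addicted rats. All 3 markers had a log2FC below 0 in MA24 vs. MA12 and above 0 in non-addicted vs. MA24. By edgeR and DESeq2, 0 of 3 were called in any comparison. All 3 had an unadjusted p below 0.05 in MA24 vs. MA12, as had 23.6% of all genes, and in non-addicted vs. MA24, as had 17.5%. In non-addicted vs. MA12, 0 of 3 had one, against 12.3% of all genes. The sum of the thalamic markers was also highest in these 3 rats (62.7, 55.6 and 73.4 CPM, against 27.6 to 44.8 in the other 9). Most of this sum was *Prkcd*, which ran from 15.1 to 58.1 CPM in non-addicted rats. There, *Tcf7l2* ran from 6.98 to 9.91 and *Lef1* from 3.18 to 4.80, and *Slc17a6* was at most 0.641. The part of these markers in the *Pnoc* and *Oprl1* values was not tested. *Pdyn* ran in another order. MA12 rats 4N and 7N had the most *Pdyn* (469 and 504 CPM), with septal sums of 23.3 and 22.8. MA12 rats 21 and 31, with sums of 67.4 and 55.0, had 451 and 393 CPM. Non-addicted rat 11, with the highest septal sum, had the least. The relation of *Pdyn* to these markers was not tested.

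**Figure D4:**
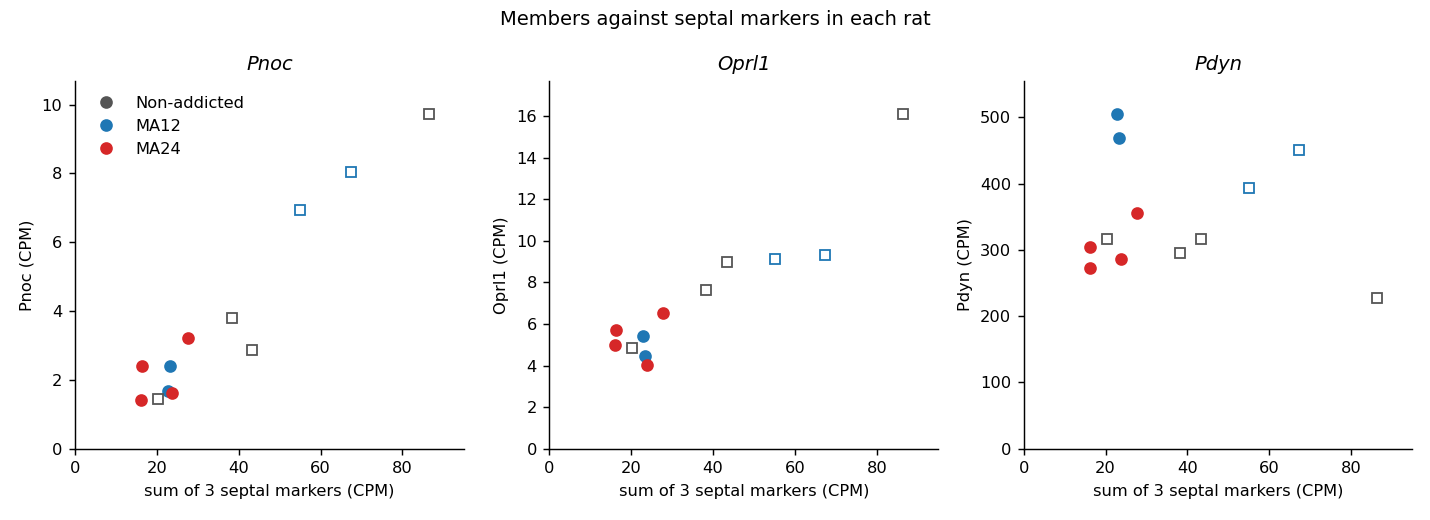
*Pnoc*, *Oprl1* and *Pdyn* (y axes, CPM from 0) against the summed CPM of 3 septal markers (x axis) in each of the 12 rats, with filled circles for rats numbered with N and open squares for the others. *Pnoc* and *Oprl1* were highest where the sum was highest (55.0 to 86.4), and *Pdyn* was lowest at 86.4.

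*Oprk1*, the kappa receptor on which dynorphin acts, was lower in MA24 than in MA12, with no overlap between the rats of these groups. It was 8.21, 10.2, 12.5 and 8.97 CPM in MA12 rats 21, 31, 4N and 7N, and 7.53, 6.46, 6.11 and 5.38 in MA24 rats 9N, 14N, 15N and 16N. Non-addicted rats 9, 11, 12 and 13 had 6.82, 9.71, 8.61 and 6.98 and overlapped both groups. In MA24 vs. MA12, *Oprk1* had a log2FC of -0.64 (SE 0.19, 95% interval -1.03 to -0.25, adjusted p = 0.0510, edgeR), which missed the threshold narrowly. It passed with DESeq2 (adjusted p = 0.0210), with all 3 groups in the edgeR fit (0.0420) and without MA24 rat 9N (0.0342), and over 17 alternatives the adjusted p ran from 0.0210 to 0.135. Among the rats numbered with N, the log2FC was -0.74 (adjusted p = 0.113, edgeR). Non-addicted rats differed from MA12 by -0.32 (adjusted p = 0.505) and from MA24 by 0.33 (adjusted p = 0.357).

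*Oprm1*, the mu receptor, was the most thinly covered member. It had 64, 23, 15 and 36 counts in MA12 rats 21, 31, 4N and 7N, 28, 13, 1 and 13 in MA24 rats 9N, 14N, 15N and 16N, and 24, 49, 16 and 18 in non-addicted rats 9, 11, 12 and 13. All groups overlapped. The log2FC in MA24 vs. MA12 was -1.28 with an SE of 0.60 (95% interval -2.53 to -0.03, adjusted p = 0.199, edgeR). The unadjusted p was 0.0442, and the difference did not pass after adjustment. Over the 12 rats, the coefficient of variation was 67.1%, against 20.0% from counting error alone at the mean count of 25.0. The log2FC in non-addicted vs. MA12 was -0.29 (adjusted p = 0.858) and in non-addicted vs. MA24 0.99 (adjusted p = 0.384).

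*Oprd1*, the delta receptor, was close in the 4 MA12 rats, at 7.62, 8.02, 7.86 and 7.05 CPM in rats 21, 31, 4N and 7N. It was 5.76, 4.34, 5.24 and 10.7 in MA24 rats 9N, 14N, 15N and 16N, and 3.70, 6.56, 7.05 and 8.43 in non-addicted rats 9, 11, 12 and 13. MA24 rat 16N was the highest of all 12, and the groups overlapped. The log2FC was -0.24 (95% interval -0.73 to 0.26, adjusted p = 0.568) in MA24 vs. MA12, -0.25 (adjusted p = 0.685) in non-addicted vs. MA12 and -0.02 (adjusted p = 0.978) in non-addicted vs. MA24 by edgeR.

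Relations between members over the 12 rats were computed for the 21 pairs of the 7 members with a mean count of at least 50. Only *Pnoc* and *Oprl1* passed (Pearson r = 0.89, permutation p = 6.00e-05, adjusted p = 0.00126, Spearman rho = 0.90, permutation p = 0.000190, adjusted p = 0.00399). Without the 2 rats farthest from the median of *Pnoc* r was 0.81 (adjusted p = 0.0783, permutation test). With levels centred per group it was 0.93 (adjusted p = 0.0644, permutation within groups), so neither of these passed. An unadjusted permutation p of r below 0.05 was seen for 3 of the 21 pairs. Besides *Pnoc* and *Oprl1*, these were *Penk* with *Oprl1* (r = -0.71, adjusted p = 0.105, permutation test) and with *Pnoc* (r = -0.66, adjusted p = 0.124). Centred per group, their r was -0.58 and -0.70 (adjusted p = 0.373 and 0.269, permutation within groups). *Penk* and *Pdyn* had an r of 0.47 (adjusted p = 0.443, permutation test), and of 0.84 when centred per group (adjusted p = 0.0644). *Pdyn* and *Oprk1* had an r of 0.51 (adjusted p = 0.443), and of -0.11 when centred.

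The genes most like each member over the 12 rats were taken from the 10764 others with a mean count of at least 50, by Pearson r of log2 CPM, as a description. For *Pdyn* these were *Arl4c* (r = 0.94), *Tmem132a* (0.92) and *Arntl* (0.90), of which *Arntl* encodes the clock activator BMAL1. With levels centred per group, these r values were 0.78, 0.74 and 0.55. For *Penk* they were *RGD1565784* (0.92), *Ramp1* (0.91) and *Slc35d3* (0.89). For *Pnoc* they were *Adra2a* (0.93), *Dgkg* (0.93) and the septal marker *Trpc4* (0.91), and for *Oprl1* they were *Tox2* (0.96), *Vwa5b1* (0.94) and *Kcnj6* (0.94). For *Pomc* they were *Rem1* (0.94), *Nos3* (0.90) and *Exoc3l1* (0.90), for *Oprk1* they were *Stk24* (0.89), *Exoc6b* (0.89) and *Tbc1d14* (0.88), and for *Oprd1* they were *Gna11* (0.91), *Cdc42bpb* (0.91) and *Nploc4* (0.90).

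Other genes of the opioid system were followed as lists. Of the genes that cut or carry the precursors, 0 of 7 tested were called in MA24 vs. MA12, 0 of 9 in non-addicted vs. MA12 and 0 of 8 in non-addicted vs. MA24 by edgeR, with 2 at an unadjusted p below 0.05 in each (23.6%, 12.3% and 17.5% of all genes) and 0 called by DESeq2. Of all genes tested, edgeR called 2.45%, 0.251% and 0.456% in these 3 comparisons. *Pcsk1* and *Pcsk2* encode convertases that cut the precursors. In MA24 vs. MA12, *Pcsk2* had a log2FC of -0.21 (adjusted p = 0.222, edgeR) and *Pcsk1* of -0.45 (adjusted p = 0.134). In non-addicted vs. MA24, *Pcsk1* had 0.68 (adjusted p = 0.122, edgeR) and *Pcsk2* -0.04 (adjusted p = 0.842). Of the peptidases that break down enkephalin and dynorphin, 1 of 9 was called in MA24 vs. MA12. It was *Lnpep*, an aminopeptidase, which fell (log2FC -1.02, SE 0.28, adjusted p = 0.0405, edgeR), and the median log2FC of the list was 0.02, against -0.02 over all genes, of which 2.45% were called. In MA24 vs. MA12, 3 of the 9 had an unadjusted p below 0.05, as had 23.6% of all genes. In non-addicted vs. MA12, 0 of 9 were called by edgeR and by DESeq2, where edgeR called 0.251% of all genes. An unadjusted p below 0.05 was seen for 1 of 9 there, as for 12.3% of all genes. In non-addicted vs. MA24, 0 of 8 were called by either, where edgeR called 0.456% of all genes. There 1 of 8 had an unadjusted p below 0.05, as had 17.5% of all genes. *Mme*, which encodes neprilysin, an enkephalin-cleaving enzyme, had a log2FC of 0.05 (adjusted p = 0.820, edgeR) in MA24 vs. MA12.

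Of the genes for signalling and regulation of the receptors, 3 of 19 fell and 0 rose in MA24 vs. MA12 by edgeR, where 2.45% of all genes were called, and DESeq2 called 2. An unadjusted p below 0.05 was seen for 8 of the 19, as for 23.6% of all genes. The median log2FC of the list was -0.16, against -0.02 over all genes. *Arrb1*, which encodes beta-arrestin 1, had a log2FC of -0.59 (adjusted p = 0.0453, edgeR). *Grk5*, a kinase that phosphorylates G protein-coupled receptors, had -0.65 (adjusted p = 0.0166). *Kcnj6*, a channel subunit opened by opioid receptors, had -1.54 (adjusted p = 0.0273) and rose in non-addicted vs. MA24 (log2FC 1.86, adjusted p = 0.0364), the 1 of 20 called there, where 0.456% of all genes were called. *Kcnj6* was also among the genes most like *Oprl1*, whose values moved with septal markers. Non-addicted vs. MA12 had 0 of 19 called by edgeR and by DESeq2, where edgeR called 0.251% of all genes. An unadjusted p below 0.05 was seen for 4 of 19 there, as for 12.3% of all genes. In non-addicted vs. MA24 it was seen for 5 of 20, as for 17.5% of all genes.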

How the data were processed

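Striatal poly-A RNA of 12 rats was sequenced. Per the methods and the submitters' processing notes, the authors used Cutadapt 1.18 for trimming, STAR 2.7.0e for alignment to rn6 and featureCounts for counting, and deposited raw counts of 17337 gene symbols, without normalization. The notes also name HTSeq 0.12.4, without a role. The strand and multi-mapping settings are not given in the sources used here, so counts of overlapping genes are uncertain.

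Groups came from the labels. Per comparison, a gene needed a mean count above 4 in its 8 libraries, and the lowest 15% by variance of TMM-normalized log2 CPM (prior count 2) were dropped, which left 10754 (MA24 vs. MA12), 10758 (non-addicted vs. MA12) and 10744 genes (non-addicted vs. MA24). Counts were scaled by TMM and tested with edgeR 4.0.16 (glmQLFit, glmQLFTest) in R 4.3.3, with Benjamini-Hochberg adjustment. SE and intervals are Wald values scaled by the quasi-dispersion. The scale for the variance filter is not defined in the methods. Ranking variance without TMM was run first and did not call *Pdyn* in non-addicted vs. MA12 (adjusted p = 0.0652). A total of 19 readings were run, and the one adopted, after *Pdyn* had been seen, is the one that gave the same numbers of called genes as an earlier processing of these counts. The 8 genes and all gene lists were likewise chosen with earlier results of these data known.

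On simulated counts with 200 genes changed 2-fold, 154, 156 and 161 were recovered in the 3 comparisons in the order above, with 2, 9 and 5 false calls. Relations across rats used 100000 permutations (Python 3.11.15, numpy 2.4.6, scipy 1.17.1, pandas 2.3.3). All 8 genes are named, together with list genes past the threshold and defining markers, and the 3 genes most like each member with a mean count of at least 50. Other settings tried were RLE factors, DESeq2 1.42.0, different filters, a fit of all 3 groups, omission of each rat, rats of 1 number kind, and that kind as a covariate. Pairs of rats within a group differed by more than sampling noise.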

Additional observations from a re-analysis of the deposited data

How the results depend on the processing

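In MA24 vs. MA12, the number of members called was 0, and it was 1 with DESeq2, with all 3 groups in the fit, among rats numbered with N, with number kind as a covariate, with the adjusted p alone (chosen after seeing the data) and in 1 of the 18 other readings of the filter, also added after seeing the data. Leaving out 1 rat gave 0 to 2, with 1 without MA12 rat 31 (*Pdyn*) or 7N (*Pnoc*) and 2 without MA24 rat 9N (*Pdyn* and *Oprk1*). *Pdyn* was called at -0.66 among rats numbered with N and at -0.68 with the covariate, and its log2FC ran from -0.66 to -0.51 with 1 rat left out. In non-addicted vs. MA12, the 1 call became 0 without the variance filter (log2FC of *Pdyn* -0.66), with filterByExpr (-0.66), in 4 of the 18 other readings (-0.66 in each), among rats numbered without N (-0.53) and with the covariate (-0.54). With 1 rat left out, it was 0 to 1, and *Pdyn* ran from -0.72 to -0.55. The loss without MA12 rat 7N came from the FC (log2FC -0.58, adjusted p = 0.0268, edgeR), and without non-addicted rats 11 and 12 and MA12 rats 21 and 4N from the adjusted p (0.0645, 0.0554, 0.0564 and 0.0564, edgeR). In non-addicted vs. MA24, 0 to 1 were called with 1 rat left out, the 1 being *Oprl1* without non-addicted rat 13. The causes of these shifts were not tested.

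The sign of the log2FC turned for some members in some alternatives, and the causes were not tested. In MA24 vs. MA12, *Pnoc* and *Oprl1* became 0.10 and 0.12 among rats numbered with N, and 0.085 and 0.10 with the covariate. With 1 rat left out, the log2FC in non-addicted vs. MA12 ran from -0.82 to 0.26 for *Pnoc* and from -0.75 to 0.094 for *Oprm1*, and in non-addicted vs. MA24 from -0.13 to 0.020 for *Pdyn* and from -0.17 to 0.33 for *Oprd1*. The number of member pairs passing, 1, became 0 with levels centred per group and 0 without the 2 rats farthest from the median. A prior count of 0.5 and RLE scaling left the count of members with an exact permutation p of 0.0286, the smallest that 4 against 4 rats allow, at 5 of 24 tests (*Pdyn* in both comparisons with MA12, *Oprk1*, *Penk* and *Pomc*). This p goes with groups that do not overlap. That was so for 15.6% of all genes in MA24 vs. MA12, 7.10% in non-addicted vs. MA12 and 10.0% in non-addicted vs. MA24. The 24 tests share rats and are not independent. No paired analysis was possible because the groups share no rat numbers. At a mean count of 25.0, counting error was largest for *Oprm1*.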

Other observations

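Marker genes of other cell types and regions that edgeR called in a comparison are named here beside the number tested in their list. No gene of the remaining marker lists was called, and no list was tested as a set. Of all genes tested, 2.45% were called in MA24 vs. MA12, 0.251% in non-addicted vs. MA12 and 0.456% in non-addicted vs. MA24. In MA24 vs. MA12, *Nos1*, of nitric oxide interneurons, fell (log2FC -0.76, adjusted p = 0.0434, edgeR). It was the 1 called of 6 GABA interneuron markers tested, of which 4 had a log2FC below 0, and DESeq2 called 0. *Sst*, also on that list, had a log2FC of 0.20 (adjusted p = 0.276, edgeR). The list summed to 300 to 365 CPM in MA12 and 305 to 369 in MA24. *Prkcd*, enriched in thalamus, fell (log2FC -0.94, adjusted p = 0.0131, edgeR), the 1 called of 3 thalamic markers tested. In non-addicted vs. MA12, *Kdr*, an endothelial receptor for vascular growth factor, fell (log2FC -1.08, adjusted p = 0.0128, edgeR), the 1 called of 4 endothelial markers. In non-addicted vs. MA24, *Kdr* and the endothelial tight junction gene *Cldn5* fell (log2FC -0.85 and -0.68, adjusted p = 0.0354 and 0.0241, edgeR). These were 2 of 4 endothelial markers. *Foxj1*, of ependymal cilia, rose (log2FC 1.08, adjusted p = 0.0354, edgeR), the 1 called of 4 ependymal markers.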
